A study of Brassica rapa with 18 samples.

Results

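The genes described here are the 3 Brassica rapa genes of the core pathway of aliphatic glucosinolates that carry the identifiers Bra026058 (CYP79F1), Bra032734 (CYP83A1) and Bra016908 (CYP83A1), 3 of 42186 features in the table of gene counts. They were chosen by identifier, not by their values, and all 3 passed the filter on low counts that left 26593 features for testing. The names of the 3 genes come from the list by which they were chosen, because the count table holds identifiers only. The study sprayed wild-type seedlings of the inbred line R-o-18 of Brassica rapa var. trilocularis with methyl jasmonate (MeJA, 50 µM) or with mock solution, both in 0.1% Tween-20. MeJA is the volatile ester of jasmonic acid, a hormone that plants make on wounding and herbivory. Plants were 10 days old when sprayed, and leaves were taken at 10 min, 24 h or 72 h. The 6 groups were MeJA at each time and mock at each time, with 3 biological replicates per group and 18 mRNA libraries in all.

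Glucosinolates are sulfur-rich defence compounds of the Brassicaceae that myrosinase enzymes break down to toxic products when tissue is damaged. Aliphatic glucosinolates are built from methionine. In Arabidopsis, a set of enzymes first lengthens the side chain of methionine, and CYP79F1, a cytochrome P450, turns the chain-elongated amino acid into an aldoxime. CYP83A1, a second cytochrome P450, oxidises that aldoxime to a reactive intermediate which is joined to a sulfur donor. Later enzymes of the core pathway cleave the conjugate, add glucose and add sulfate. CYP79F1 therefore acts on the amino acid and CYP83A1 on its product. A separate pair of steps, through CYP79B and CYP83B enzymes, makes the indolic glucosinolates from tryptophan.

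Library totals ran from 13505607 to 17796115 counts, and the lowest count of any of the 3 genes in any library was 448. Counting error alone gives a coefficient of variation of 1.05% to 2.60% per group for CYP79F1 and Bra032734, below the spread between replicates in every group. For Bra016908 it was 3.19% in mock at 10 min and 3.21% in MeJA at 72 h, where the replicates varied by 2.50% and 3.04%. At 10 min the library of MeJA replicate 2 stood apart from its group. It differed from MeJA replicates 1 and 3 by a chi-square of 25 and 24.5 per degree of freedom, where those 2 differed from each other by 6.25. The widest gap between replicates in any group was 26.9, between MeJA 24 h replicates 1 and 2. The share of counts on ENSRNA identifiers was 4.31% in MeJA 10 min replicate 2, 1.35% in replicate 1 and 1.77% in replicate 3. In mock at 10 min it was 3%, 2.14% and 1.87% in replicates 1, 2 and 3. The ENSRNA share at 72 h was 1.69%, 3.98% and 4.03% with MeJA and 5.8%, 5.19% and 4.42% with mock. At 24 h it was 1.47%, 1.7% and 2.38% with MeJA and 0.997%, 1.52% and 1.39% with mock. Its part in the results at 10 min and 72 h was not tested. Mock replicates 2 and 3 of 10 min were the closest pair of replicates, at 1.49 per degree of freedom. The comparisons of MeJA with mock at 10 min, and those of the later times with MeJA at 10 min, are also given without MeJA 10 min replicate 2. Leaf marker genes were not examined, since the identifiers could not be paired with names. Bulk RNA cannot tell fewer cells of one type from less RNA per cell.

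CYP79F1 (Bra026058), the entry enzyme, was higher with MeJA than with mock at 24 h and 72 h, by a factor of 2.31 at 24 h and 2.77 at 72 h. At 10 min its values were 287, 463 and 236 CPM (counts scaled to library size) in MeJA replicates 1, 2 and 3, against 221, 244 and 246 CPM in mock. These groups overlapped, because MeJA replicate 3 lay among the mock libraries while MeJA replicate 2 lay far above them. At 24 h the values were 404, 304 and 335 CPM with MeJA, against 143, 157 and 153 CPM with mock. At 72 h they were 259, 291 and 198 CPM with MeJA, against 100.3, 80.5 and 89.5 CPM with mock. At 24 h and at 72 h the lowest MeJA library lay well above the highest mock library.

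The fitted log2 fold change of CYP79F1 was 0.47 at 10 min (standard error, SE, 0.19; edgeR's quasi-likelihood test with Benjamini-Hochberg adjustment, adjusted p = 0.145). It was 1.21 at 24 h (SE 0.19; edgeR adjusted p = 0.000177) and 1.47 at 72 h (SE 0.19; edgeR adjusted p = 0.000265). As background, 4.69% of all features tested rose at 10 min, 15.4% at 24 h and 6.11% at 72 h. At 72 h 2.02% of all features had a higher fold change than CYP79F1, at 24 h 5.15% and at 10 min 12.3%. The 10 min value hung on single libraries: it was 0.14 without MeJA replicate 2 (edgeR adjusted p = 0.702) and 0.66 without MeJA replicate 3 (edgeR adjusted p = 0.0270). The fit without MeJA replicate 3 called 10.3% of all features in either direction.

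CYP83A1 (Bra032734), one of the genes for the second enzyme, was also higher with MeJA at 24 h and 72 h, by a factor of 1.64 at 24 h and 1.76 at 72 h. At 10 min it stood at 477, 681 and 443 CPM with MeJA, against 391, 447 and 445 CPM with mock. MeJA replicate 3 again lay within the mock range, and MeJA replicate 2 was again the highest. At 24 h it stood at 632, 591 and 600.1 CPM with MeJA, against 369, 384 and 359 CPM with mock. At 72 h it stood at 482, 512 and 461 CPM with MeJA, against 289.6, 259 and 278 CPM with mock. Its replicates were the tightest of the 3 genes at 24 h, with a coefficient of variation of 3.52% with MeJA and 3.44% with mock.

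The log2 fold change of Bra032734 was 0.32 at 10 min (SE 0.12; edgeR adjusted p = 0.128), 0.71 at 24 h (SE 0.12; edgeR adjusted p = 0.000391) and 0.81 at 72 h (SE 0.12; edgeR adjusted p = 0.000813). Higher fold changes were held by 17.8% of all features at 10 min, 10.7% at 24 h and 6% at 72 h. Without MeJA replicate 2 the value at 10 min was 0.11 (edgeR adjusted p = 0.626), and without MeJA replicate 3 it was 0.44 (edgeR adjusted p = 0.0314). The fit without MeJA replicate 3 called 10.3% of all features in either direction.

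CYP83A1 (Bra016908), the other gene for the second enzyme, was higher with MeJA at all 3 times, though the 10 min call was lost without MeJA replicate 2 or without any one mock library. At 10 min it stood at 85.8, 145 and 75.5 CPM with MeJA, against 64.0, 66.5 and 67.2 CPM with mock. The groups did not overlap, but MeJA replicate 2 was again far above the other MeJA libraries. At 24 h it stood at 112, 90.8 and 108 CPM with MeJA, against 46.6, 65.5 and 44.4 CPM with mock. At 72 h it stood at 55.2, 57.9 and 54.8 CPM with MeJA, against 32.6, 29.3 and 29.2 CPM with mock. The mock libraries of 24 h were spread, with replicate 2 above the other two, and the groups still did not overlap at that time.

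The log2 fold change of Bra016908 was 0.63 at 10 min (SE 0.18; edgeR adjusted p = 0.0469), 0.99 at 24 h (SE 0.19; edgeR adjusted p = 0.000740) and 0.88 at 72 h (SE 0.19; edgeR adjusted p = 0.00797). At 10 min 8.96% of all features had a higher fold change, at 24 h 6.74% and at 72 h 5.35%. Without MeJA replicate 2 the 10 min value was 0.29 and the call was lost (edgeR adjusted p = 0.316). The call was also lost on leaving out any one of the mock libraries of 10 min, where the log2 fold change ran from 0.63 to 0.65 (edgeR adjusted p from 0.112 to 0.135), and with only the 10 min libraries in the fit (edgeR adjusted p = 0.106).

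**Figure D1:**
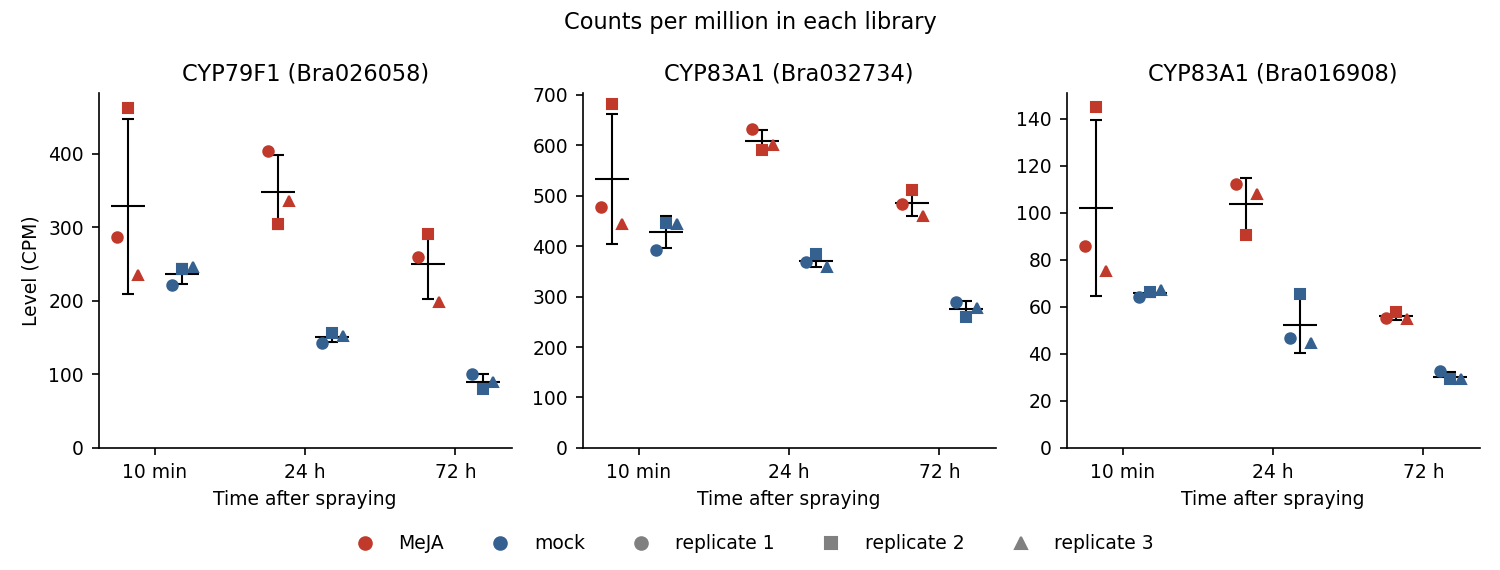
Level of each gene in CPM (vertical axis from 0) in every library by time after spraying, with MeJA in red left of mock in blue; the horizontal bar is the mean and the error bar the SD of 3 libraries. MeJA and mock are apart for every gene at 24 h and 72 h, and MeJA 10 min replicate 2 (square) is the highest library of its group in every panel. The mock means get lower with time, though only the fall from 10 min to 72 h was called for every gene.

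In the order of the group means, MeJA at 24 h came first for all 3 genes and mock at 72 h came last. CYP79F1 averaged 348 ± 50.7 CPM in MeJA at 24 h (SD, n = 3), 328 ± 119 CPM in MeJA at 10 min and 249 ± 47.0 CPM in MeJA at 72 h. Its mock groups averaged 237 ± 13.7 CPM at 10 min, 151 ± 7.08 CPM at 24 h and 90.1 ± 9.89 CPM at 72 h. Neighbours in this order overlapped in range among the first 4 groups, from MeJA at 24 h to mock at 10 min. Mock at 24 h and mock at 72 h overlapped neither each other nor mock at 10 min.

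Bra032734 followed the same order of groups. It averaged 608 ± 21.4 CPM in MeJA at 24 h (SD, n = 3), 534 ± 129 CPM in MeJA at 10 min and 485 ± 25.7 CPM in MeJA at 72 h. In mock it averaged 428 ± 31.3 CPM at 10 min, 371 ± 12.7 CPM at 24 h and 276 ± 15.2 CPM at 72 h. The 3 MeJA groups overlapped their neighbours in this order, while MeJA at 72 h lay above mock at 10 min, and the mock groups did not overlap each other.

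The order differed for Bra016908, where mock at 10 min came before MeJA at 72 h. Its means were 104 ± 11.3 CPM in MeJA at 24 h (SD, n = 3), 102 ± 37.5 CPM in MeJA at 10 min and 56.0 ± 1.70 CPM in MeJA at 72 h. In mock they were 65.9 ± 1.65 CPM at 10 min, 52.2 ± 11.6 CPM at 24 h and 30.4 ± 1.95 CPM at 72 h. MeJA at 72 h overlapped mock at 24 h, and MeJA at 24 h overlapped MeJA at 10 min, with no other overlap between neighbours.

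The levels in mock leaves fell between 10 min and 72 h for all 3 genes, and the share of ENSRNA counts given above was also highest in mock at 72 h. Between 10 min and 72 h the log2 fold change in mock was -1.39 for CYP79F1 (SE 0.19; edgeR adjusted p = 0.000329). It was -0.63 for Bra032734 (SE 0.12; edgeR adjusted p = 0.00259) and -1.12 for Bra016908 (SE 0.19; edgeR adjusted p = 0.00106). In this comparison 10.6% of all features fell, and 98.9% of all features had a higher fold change than CYP79F1. Between 24 h and 72 h in mock, CYP79F1 fell by 0.74 on the log2 scale (edgeR adjusted p = 0.0414) and Bra016908 fell by 0.78 (edgeR adjusted p = 0.0315), where 1.98% of all features fell. Bra032734 had a log2 fold change of -0.43 there (edgeR adjusted p = 0.0635). The call of CYP79F1 was lost without any one of the 6 libraries compared, with adjusted p from 0.0576 to 0.155. That of Bra016908 was lost without mock 24 h replicate 2 (adjusted p = 0.176) or any one mock library of 72 h (adjusted p from 0.0539 to 0.113).

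From 10 min to 24 h in mock, log2 fold changes were -0.65 for CYP79F1 (edgeR adjusted p = 0.0506), -0.21 for Bra032734 (edgeR adjusted p = 0.333) and -0.34 for Bra016908 (edgeR adjusted p = 0.288), where 3.68% of all features fell. Time coincides with plant age and with the batch field of the labels, so these cannot be told apart in any comparison of times. Each test of MeJA against mock was made within 1 time. The order of group means above and the changes of response below set different times side by side.

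In MeJA leaves no fall over time was called for CYP79F1 or Bra032734 with all libraries, while Bra016908 fell. Between 10 min and 72 h with MeJA the log2 fold change was -0.40 for CYP79F1 (95% interval -0.80 to 0.003; edgeR adjusted p = 0.133) and -0.14 for Bra032734 (95% interval -0.40 to 0.12; edgeR adjusted p = 0.434). Bra016908 fell by 0.87 over the same span (SE 0.19; edgeR adjusted p = 0.00284), where 14.2% of all features fell. From 24 h to 72 h its log2 fold change with MeJA was -0.89 (SE 0.19; edgeR adjusted p = 0.00301), where 9.98% of all features fell. In that step CYP79F1 had -0.48 (edgeR adjusted p = 0.0955) and Bra032734 -0.33 (edgeR adjusted p = 0.0819). Without MeJA 10 min replicate 2, the value from 10 min to 72 h was -0.068 for CYP79F1 (edgeR adjusted p = 0.790). It turned to 0.075 for Bra032734 (edgeR adjusted p = 0.604), and it was -0.53 for Bra016908 (edgeR adjusted p = 0.0132). Without MeJA 10 min replicate 3, that of CYP79F1 was -0.59 and was called (edgeR adjusted p = 0.0266). The fits without replicate 2 and without replicate 3 called 17.8% and 23.4% of all features in either direction.

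From 10 min to 24 h with MeJA, log2 fold changes were 0.08 for CYP79F1 (edgeR adjusted p = 0.787), 0.19 for Bra032734 (edgeR adjusted p = 0.283) and 0.02 for Bra016908 (edgeR adjusted p = 0.946), where 26.9% of all features were called. Without MeJA 10 min replicate 2 they were 0.41, 0.40 and 0.36, and only that of Bra032734 was called (edgeR adjusted p = 0.00429). In that fit 23.1% of all features were called.

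Whether the response to MeJA itself changed between times was tested directly. Over the 3 genes and 3 pairs of times, edgeR called 0 of 9 changes with all libraries, and DESeq2 called 1. The 9 changes share libraries and are not separate results. For CYP79F1 the log2 response at 72 h exceeded that at 10 min by 0.997 (SE 0.27; unadjusted p = 0.00173 and adjusted p = 0.134 by edgeR). This was the difference that DESeq2 called, at 1.02 (DESeq2 adjusted p = 0.0115), where DESeq2 called 1.64% of all features. Over the same span the response of Bra032734 differed by 0.49 (95% interval 0.13 to 0.86; edgeR adjusted p = 0.245) and that of Bra016908 by 0.25 (95% interval -0.30 to 0.80; edgeR adjusted p = 0.739). The response at 24 h exceeded that at 10 min by 0.73 in CYP79F1 (95% interval 0.17 to 1.30; edgeR adjusted p = 0.156), by 0.39 in Bra032734 (95% interval 0.03 to 0.76; edgeR adjusted p = 0.257) and by 0.36 in Bra016908 (95% interval -0.19 to 0.91; edgeR adjusted p = 0.530). The share of all features called by edgeR was 2.88% for 24 h minus 10 min and 0.301% for 72 h minus 10 min.

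By edgeR, changes of response were called only without MeJA 10 min replicate 2, the highest library of its group for all 3 genes. Leaving out the highest library lowers the 10 min response and narrows its group by construction. The calls below are therefore not separate support for a response that grows from that library's time onward. Without MeJA 10 min replicate 2, the response at 24 h exceeded that at 10 min by 1.06 in CYP79F1 (edgeR adjusted p = 0.00458), by 0.61 in Bra032734 (edgeR adjusted p = 0.00679) and by 0.70 in Bra016908 (edgeR adjusted p = 0.0369), with 4.44% of all features called. Without it the response at 72 h exceeded that at 10 min by 1.33 in CYP79F1 (edgeR adjusted p = 0.00455) and by 0.71 in Bra032734 (edgeR adjusted p = 0.0128), with 0.408% of all features called. The difference in Bra016908 was then 0.59 and was not called (edgeR adjusted p = 0.209). Without MeJA 10 min replicate 3, the response at 24 h exceeded that at 10 min by 0.54 in CYP79F1, 0.28 in Bra032734 and 0.18 in Bra016908. None of these was called (edgeR adjusted p from 0.273 to 0.772). With all libraries, the response changed between 24 h and 72 h by 0.26 in CYP79F1 (95% interval -0.30 to 0.83), by 0.10 in Bra032734 (95% interval -0.27 to 0.47) and by -0.11 in Bra016908 (95% interval -0.66 to 0.45). The edgeR adjusted p of these 3 ran from 0.715 to 0.897, where 1.82% of all features were called.

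**Figure D2:**
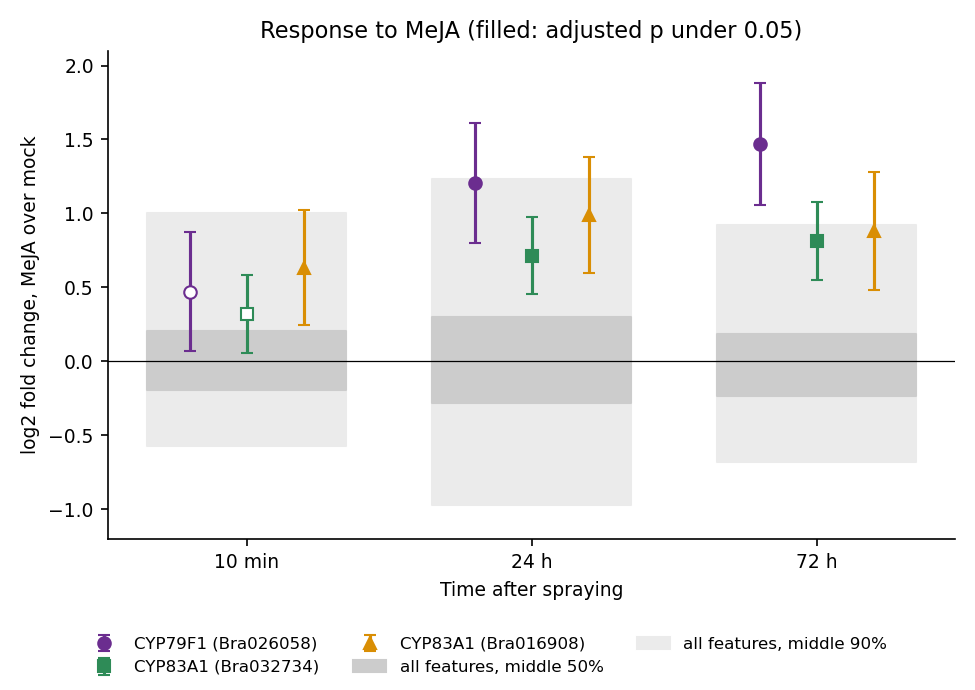
Fitted log2 fold change of MeJA over mock (vertical axis) for each gene by time after spraying, with 95% intervals; filled symbols were called at an adjusted p under 0.05, and dark and light grey bands hold the middle 50% and 90% of all 26593 features. CYP79F1 stands at 1.21 at 24 h and 1.47 at 72 h, and at 72 h its whole interval lies above the light band.

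The 3 genes can be set against each other within a library, since a ratio of counts needs no library scaling, and gene length cancels when a ratio is compared between groups. For each of 3 pairs, the MeJA minus mock difference in the mean log2 ratio was averaged over the 3 times. It was tested by an exact permutation of treatment within each time (two-sided, 8000 arrangements, 3 pairs tested). The ratio of CYP79F1 to Bra032734 was higher with MeJA by 0.41 on the log2 scale (exact permutation p = 0.00100, adjusted over the 3 pairs 0.00300). The ratio of Bra016908 to Bra032734 was higher with MeJA by 0.21 (exact permutation p = 0.00700, adjusted 0.0105). Without MeJA 10 min replicate 2 these were 0.39 and 0.18 (exact permutation p adjusted over the 3 pairs 0.00600 and 0.0176). The ratio of CYP79F1 to Bra016908 differed by 0.20, which did not pass (exact permutation p = 0.0877, adjusted 0.0877), and by 0.21 without that library (adjusted exact permutation p = 0.0850).

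The gap between CYP79F1 and Bra032734 was present at 24 h and 72 h. At 24 h the log2 ratio of their counts was -0.65, -0.96 and -0.84 with MeJA, against -1.37, -1.29 and -1.23 with mock. At 72 h it was -0.90, -0.81 and -1.21 with MeJA, against -1.53, -1.69 and -1.64 with mock. At both of these times all 3 MeJA libraries lay above all 3 mock libraries. At 10 min the log2 ratio was -0.73, -0.56 and -0.91 with MeJA, against -0.82, -0.87 and -0.86 with mock, and the groups overlapped. Without MeJA replicate 2 the means at 10 min were -0.82 with MeJA and -0.85 with mock. For 1 time alone, 3 libraries against 3 cannot give an exact permutation p below 0.100.

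The CYP83A1 copies also differed in response on average over the 3 times, though by little at 72 h. The log2 ratio of Bra016908 to Bra032734 averaged -2.42 ± 0.17 with MeJA and -2.70 ± 0.07 with mock at 10 min (SD, n = 3), without overlap. Without MeJA 10 min replicate 2 the MeJA mean was -2.51, still without overlap. At 24 h it averaged -2.56 ± 0.13 with MeJA and -2.85 ± 0.26 with mock, where the groups overlapped. At 72 h it averaged -3.11 ± 0.04 with MeJA and -3.18 ± 0.06 with mock, a difference of 0.07, and MeJA replicate 2 and mock replicate 2 stood at nearly the same value. In both treatments this ratio was lowest at 72 h, so that the later libraries held fewer counts of Bra016908 for each count of Bra032734. How the authors' counting assigned reads shared by the copies is not stated in any source used here.

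**Figure D3:**
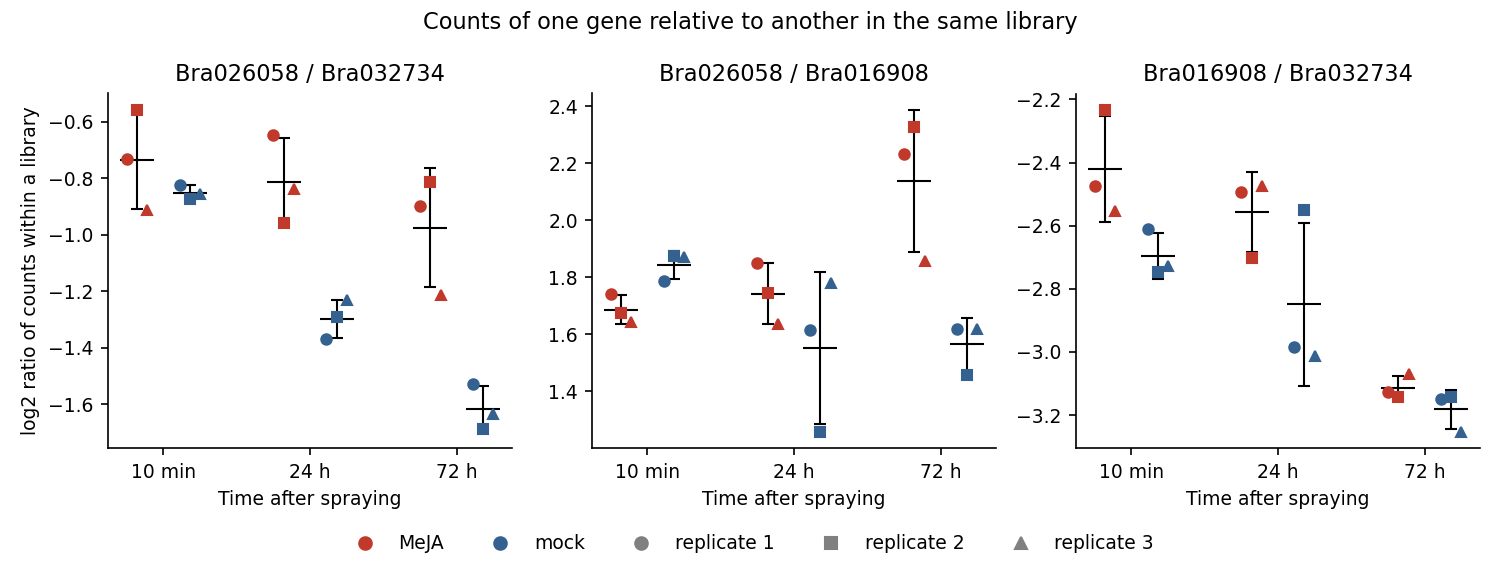
log2 ratio of the counts of 2 genes in the same library (vertical axis, not starting at 0) by time after spraying, with MeJA in red left of mock in blue, the mean as a bar and the SD of 3 libraries as error bar. CYP79F1 over Bra032734 (left) is apart at 24 h and 72 h, and CYP79F1 over Bra016908 (middle) is lower with MeJA at 10 min and higher at 72 h.

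The features with the pattern most like each gene were sought over the 18 libraries, among 23993 other features with a mean of at least 1 CPM. Likeness was the root-mean-square difference of log2 CPM after subtracting each feature's own mean, so that smaller is more alike. Nearest to CYP79F1 were Bra005641, at a difference of 0.15, and Bra027035, at 0.22, where the median feature stood at 0.77. Bra016908 was the fifth nearest to CYP79F1, at 0.24, and Bra032734 was number 19, at 0.33. Bra005641 had log2 fold changes of 0.699, 1.13 and 1.19 with MeJA over mock in the order of the 3 times, and Bra027035 had 0.76, 1.45 and 1.23.

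Nearest to Bra032734 were Bra034147, at 0.14, and Bra002464, at 0.14, where the median feature stood at 0.49. Bra016908, the other CYP83A1 gene, ranked 891 in likeness to Bra032734, at 0.30, and CYP79F1 ranked 1688, at 0.33. Nearest to Bra016908 were Bra031132, at 0.15, and Bra001090, at 0.16, where the median feature stood at 0.70. CYP79F1 was number 8 in likeness to Bra016908 and Bra032734 was number 37. Bra032734 moved least over the 18 libraries, with an SD of 0.40 in log2 CPM, against 0.72 for CYP79F1 and 0.65 for Bra016908, and more features lie near a gene that moves little. Without the 10 min libraries, the nearest features were Bra029355 and Bra005641 for CYP79F1, Bra025111 and Bra000684 for Bra032734, and Bra031132 and Bra003645 for Bra016908, and most ranks moved. Bra016908 then ranked 40 and Bra032734 ranked 94 in likeness to CYP79F1, and CYP79F1 ranked 103 and Bra032734 ranked 75 in likeness to Bra016908. The ranks in likeness to Bra032734 were then 808 for Bra016908 and 2003 for CYP79F1. The shared libraries, MeJA 10 min replicate 2 among them, enter all of these values.

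**Figure D4:**
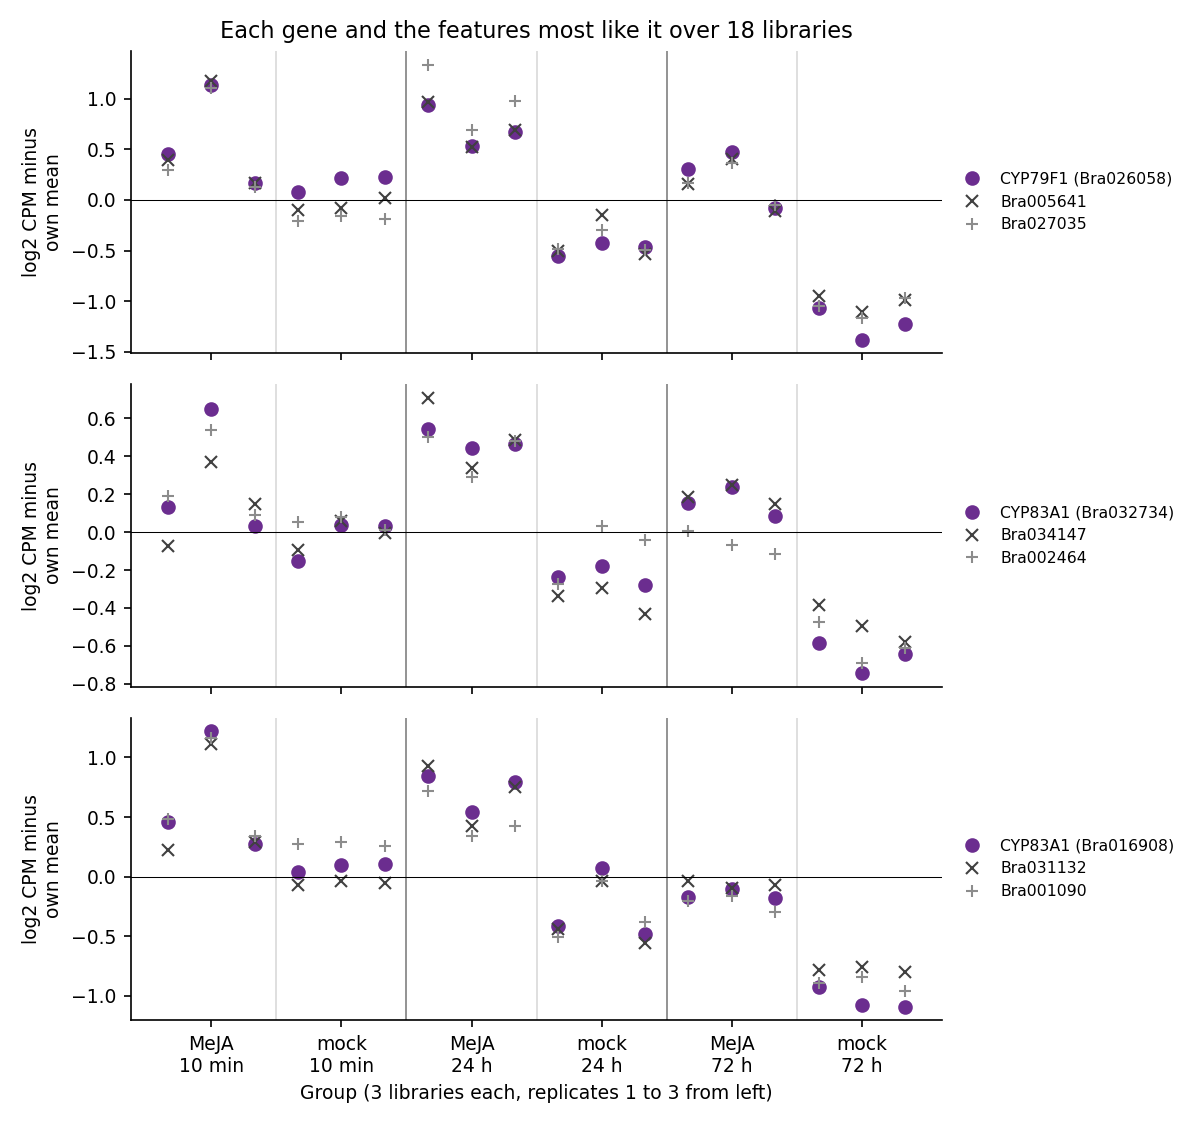
log2 CPM minus each feature's own mean (vertical axis) in all 18 libraries for each gene (filled circles) and the 2 features most like it (crosses and plus signs), with MeJA left of mock at each time and replicates 1 to 3 from left. In the nearest features too, MeJA 10 min replicate 2 is the highest library of its group and mock at 72 h is low. They were chosen for likeness over these same libraries, so this follows from the choice.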

How the data were processed

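The authors deposited raw read counts for each gene, in whole numbers and not normalised, with 1 column per library. FastQC, TopHat2, HTSeq and edgeR are named in the submitters' processing notes, with no versions or roles. The genome build, annotation and strand setting were not given in the sources used. Of the identifiers, 1 matched the RefSeq gene table of CAAS_Brap_v3.01, and none of the 3 genes did, so the pathway and leaf marker lists could not be filled. The genes, lists and tests were chosen with earlier results of these data known.

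Tests used edgeR 4.0.16 (R 4.3.3): filterByExpr on the 6 groups, TMM scaling, and 1 quasi-likelihood fit of 6 group means to all 18 libraries, with Benjamini-Hochberg adjustment over 26593 features and calls at an adjusted p under 0.05. The SE was taken from the fold change and its F statistic. CPM used the counts of tested features and the TMM factors, and log2 CPM a prior count of 2. Ratios had 0.5 added to each count. No pair of replicates agreed within sampling noise (chi-square per degree of freedom from 1.49 to 26.9 over 18 pairs). Nothing besides the term biological replicate says that libraries came from separate plants, so p-values measure the spread between these libraries. Named features were the 3 genes and the 2 most like each. Alternatives were other scalings, DESeq2 1.42.0, no filter, fewer libraries in the fit, a replicate block and leaving out each library. The procedure was tested on simulated data.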

Additional observations from a re-analysis of the deposited data

Results flagged for a closer look

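The ratio of CYP79F1 (Bra026058) to the CYP83A1 gene Bra016908 within a library moved in opposite directions at 10 min and 72 h. At 10 min all 3 MeJA libraries lay below all 3 mock libraries, with a mean log2 ratio of 1.69 ± 0.05 with MeJA and 1.84 ± 0.05 with mock (SD, n = 3). At 72 h all 3 MeJA libraries lay above all 3 mock libraries, at 2.14 ± 0.25 with MeJA and 1.56 ± 0.09 with mock. The MeJA minus mock difference was 0.73 higher at 72 h than at 10 min, with or without MeJA 10 min replicate 2. Without that library the 10 min difference was -0.15 and the libraries still did not overlap. In this ratio it stood at 1.67, between replicates 1 (1.74) and 3 (1.64), so leaving it out could change little. The ratio was picked because its MeJA libraries lay on opposite sides of mock at these times. The difference between times was noticed in the data and was not tested. The exact permutation p was 0.100 at each of these times, the smallest that 3 libraries against 3 can give.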

How the results depend on the processing

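The rises of all 3 genes at 24 h and 72 h held under every alternative run, with log2 fold changes from 0.59 (Bra032734 at 24 h, library totals) to 1.62 (CYP79F1 at 72 h, without MeJA replicate 3). The 10 min call of Bra016908 was lost with only the 10 min libraries in the fit (0.65, adjusted p = 0.106) and with a replicate block (0.57, adjusted p = 0.0805), and ran from 0.29 to 0.81 over single libraries left out. At 10 min that range was 0.14 to 0.66 for CYP79F1 and 0.11 to 0.44 for Bra032734. With libraries left out, the change of response from 10 min to 24 h ran from 0.54 to 1.06 for CYP79F1, from 0.28 to 0.61 for Bra032734 and from 0.18 to 0.70 for Bra016908. From 10 min to 72 h it ran from 0.81 to 1.33 for CYP79F1 and from 0.38 to 0.71 for Bra032734, and DESeq2 called CYP79F1 (1.02, adjusted p = 0.0115). In mock from 24 h to 72 h, Bra032734 was called with library totals (-0.53), DESeq2 (-0.43) and only the libraries of those times (-0.44). In that order, these fits called 6.47%, 6.08% and 2.31% of all features in either direction. With single libraries left out, CYP79F1 ran there from -0.82 to -0.67 and Bra016908 from -0.88 to -0.58. In mock from 10 min to 24 h, CYP79F1 was called by DESeq2 (-0.65) and with no filter (-0.66). These fits called 8.5% and 3.92% of their features in either direction. With MeJA from 24 h to 72 h, CYP79F1 (-0.46) and Bra032734 (-0.31) were called with only the libraries of those times. That fit called 14.6% of all features in either direction. With MeJA, leaving out libraries gave 0.0697 to 0.40 for Bra032734 from 10 min to 24 h and -0.59 to -0.068 for CYP79F1 from 10 min to 72 h. The ratio of CYP79F1 to Bra016908 ran from 0.15 to 0.25 and passed only without mock 24 h replicate 3 (0.24, exact permutation p adjusted over 3 pairs = 0.0475). The cause of these changes was not tested.

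No clear pairing of MeJA with mock libraries by replicate number was seen, though so few pairs cannot exclude one. Deviations of same-numbered libraries correlated at -0.215 to 0.287 over 9 pairs, and 4 of 9 correlated best with their own number. The replicate block gave 1801, 7406 and 2728 features called for the 3 times in order, in place of 1895, 7588 and 2589, and changed no other call of the 3 genes. With only the libraries of one time in the fit, 4818 features were called at 24 h. Leaving out a library gave 358 to 2769 features at 10 min, 5026 to 7612 at 24 h and 1023 to 2344 at 72 h. Scaling by library totals moved the median log2 fold change of all features at 24 h by -0.125, and the share of calls that were rises from 65.9% to 85.7% at 10 min, from 54.0% to 33.7% at 24 h and from 62.8% to 74.1% at 72 h. For the changes of response, counts were 1576, 752 and 62 under library totals and 1331, 961 and 436 under DESeq2, in place of 767 (24 h minus 10 min), 485 (72 h minus 24 h) and 80 (72 h minus 10 min). In mock from 24 h to 72 h they were 1720, 1616 and 609 under library totals, DESeq2 and the libraries of those times alone, in place of 970.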
